A study of Homo sapiens with 95 samples.

Results

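The whole smoke mixture was compared directly with 1 of its constituents in 24 of the 95 wells of a 3′ digital gene expression (3′DGE) experiment. The wells were all replicates 1 to 3 of NRF2, PIK3CA, GFP and FAT1 cells under cigarette smoke condensate (CSC, 24 µg/ml) or benzo[a]pyrene (BaP, 173 µM), 12 wells of each chemical. All cells were AALE, an immortalized line of human bronchial epithelial cells. NRF2 and PIK3CA cells overexpressed NFE2L2 and PIK3CA, FAT1 cells were a CRISPR knockout of FAT1, and GFP cells had received the Cas9 and GFP plasmid PX458 with no guide RNA, as the control for knockouts. The 12 DMSO wells of the same populations entered only the placing of each chemical against vehicle. CSC is a mixture of the particulate matter of cigarette smoke, and the labels give no BaP content for it. The doses have different units, so the comparison sets 1 chosen dose of each against the other and is not matched for dose. The study calls its replicates biological, but the sources do not say whether the 3 wells of a group came from separately grown cultures, so the p-values measure the spread between wells.

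Polycyclic aromatic hydrocarbons such as BaP bind the aryl hydrocarbon receptor (AHR), which moves to the nucleus and switches on CYP1A1 and CYP1B1, the enzymes that oxidize them. Quinones and other electrophiles release the transcription factor NRF2 from KEAP1, and NRF2 then drives genes of glutathione, thioredoxin and iron storage such as NQO1 and the ferritin genes FTL and FTH1. Sterols that act on the liver X receptors (LXRs) raise the cholesterol exporter ABCA1, and interferons raise the IFIT genes through the factor complex ISGF3.

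Promoter sequence is shown for genes at either end of the comparison, the sterol exporter ABCA1, higher in CSC, and 4 interferon-stimulated genes, higher in BaP. The sequences are from RefSeq on GRCh38.p14 and hold the 170 bases before the start site that lies farthest upstream, 5′ to 3′ on the strand of the gene. Capitals in ABCA1 mark a match on either strand to GGTNA and GGTCA with 5 bases of any kind between them, which covers the paired half-sites that LXRs bind. Capitals in the other genes mark matches on either strand to GAAA and GAAA with 2 bases of any kind between them, the core of the interferon-stimulated response element. The windows are chr9:104928156-104928325 for ABCA1, chr10:89392453-89392622 for IFIT1, chr10:89327827-89327996 for IFIT3, chr14:94110566-94110735 for IFI27 and chr1:78649619-78649788 for IFI44, of which ABCA1 alone lies on the minus strand.
ABCA1: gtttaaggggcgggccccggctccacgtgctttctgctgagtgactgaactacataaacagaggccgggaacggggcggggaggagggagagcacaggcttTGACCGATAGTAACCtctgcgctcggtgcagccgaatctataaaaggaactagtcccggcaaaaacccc
IFIT1: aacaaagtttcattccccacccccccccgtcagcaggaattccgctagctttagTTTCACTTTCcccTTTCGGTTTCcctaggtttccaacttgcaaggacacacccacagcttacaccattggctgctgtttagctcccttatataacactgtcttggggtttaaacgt
IFIT3: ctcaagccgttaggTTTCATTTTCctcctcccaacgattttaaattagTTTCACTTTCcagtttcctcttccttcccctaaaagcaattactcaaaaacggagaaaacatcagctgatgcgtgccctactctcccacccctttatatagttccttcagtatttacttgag
IFI27: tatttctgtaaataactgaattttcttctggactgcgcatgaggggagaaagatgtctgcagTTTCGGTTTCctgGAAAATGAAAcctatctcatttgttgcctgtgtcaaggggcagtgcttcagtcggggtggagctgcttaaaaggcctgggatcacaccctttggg
IFI44: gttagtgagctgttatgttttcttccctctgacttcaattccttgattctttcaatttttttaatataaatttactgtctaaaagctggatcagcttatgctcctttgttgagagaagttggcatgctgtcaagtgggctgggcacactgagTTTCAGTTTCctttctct

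The first pattern was found in 0.239% of 35116 RefSeq promoters of 300 bases, and among these windows it starts 69 bases before the ABCA1 start site. A list of LXR genes, described below, had 7 members with a promoter sequence, of which 1, ABCA1 itself, held this pattern. The second was found in 3.57% of the same promoters. IFIT1 holds it 116 and 103 bases before the start, IFIT3 at 156 and 122, IFI27 at 108 and 95, and IFI44 once at 18 bases. Among the listed interferon-stimulated genes that were higher in BaP, all 8 with a promoter in the table held it, as did 12 of the 20 other members with one. A match describes these letters and is not a measured binding site.

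Among 11277 genes with a mean count above 1, 516 differed between CSC and BaP with population as a covariate (limma, adjusted p under 0.05, 4.58% of genes tested). In CSC 178 genes were higher (1.58%) and in BaP 338 were higher (3.00%). Most differences were small: 393 of the 516 had a log2 fold change under 0.5 in size, and 28 reached 1 in size, 12 higher in CSC and 16 higher in BaP. The sign of the mean difference was the same in all 4 populations for 477 of the 516. The 516 were chosen on the difference pooled over these same wells, so the choice itself favours agreement in sign. Every CSC well lay beyond every BaP well within each population for 14 genes that were higher in CSC (0.124%) and for 39 that were higher in BaP (0.346%). The balance of directions depended on scaling. With library totals in place of TMM factors 569 genes passed, 359 of them higher in CSC, or 63.1% in place of 34.5%, while the median log2 difference of all genes moved from 0.0015 to 0.06.

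Depth overlapped between the chemicals, from 893754 to 1895735 counts in CSC wells and from 940354 to 1400153 in BaP wells. Plate rows C and D held the CSC wells and rows E and F the BaP wells, and the well barcodes held 1 to 3 G or C bases in CSC wells against 3 to 5 in BaP wells. All 12 DMSO wells lay in rows A and B, so each placing of a chemical against DMSO is also a difference in plate row. Their barcodes held 1 G or C base, nearer to the CSC wells than to the BaP wells. The placing of BaP against DMSO carries the greater difference in barcode content. Chemical, plate row and barcode therefore cannot be told apart in these wells. Within a group, barcode content varied only in the FAT1 CSC wells (1, 3 and 3) and the GFP BaP wells (3, 4 and 5). A barcode term fitted beside chemical and population therefore rests on those groups. With barcode G and C content added as a covariate, the standard error of the chemical term rose, for B2M from 0.0204 to 0.0624. In that fit 3 genes passed the threshold, IFIT2, TXNIP and MGST1, with 651 at an unadjusted p under 0.05. Of the 516 genes 390 had the same sign in that fit. Among the genes past the threshold that the naming rule picked, 12 of 85 had the opposite sign there, with standard errors up to 1.38: WNK1 (0.59), NSDHL (0.39), DHRS3 (0.06), AKR7A2 (0.02), PCNA (0.01) and PGK1 (0.08) turned positive, and MMP1 (-1.32), SLC2A3 (-0.73), DUSP6 (-0.48), DUSP4 (-0.38), TIMP1 (-0.16) and FTL (-0.04) turned negative. None of these values passed in that fit.

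The difference was examined again in the other 4 populations (HCRED, FGFR1, NRG1 and CDKN2A), in which no well of the main comparison was used. FGFR1 and NRG1 cells overexpressed those genes, and CDKN2A cells were a CRISPR knockout of CDKN2A. HCRED cells carried an empty vector with the reporter HcRed, the control of the study for overexpression, which includes NRF2 and PIK3CA cells. The 4 populations gave 8 CSC and 9 BaP samples after wells with a 2-digit replicate number were summed by its leading digit. There 3.98% of genes tested passed the threshold, 1.48% as higher in CSC and 2.50% as higher in BaP. Of the 178 genes higher in CSC, 167 had the same sign there and 66 passed, and of the 338 higher in BaP, 319 had the same sign and 196 passed. None of the 516 passed with the opposite sign. These samples have the same plate rows and barcode groups as the main wells, so they repeat the layout as well as the chemicals.

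**Figure D1:**
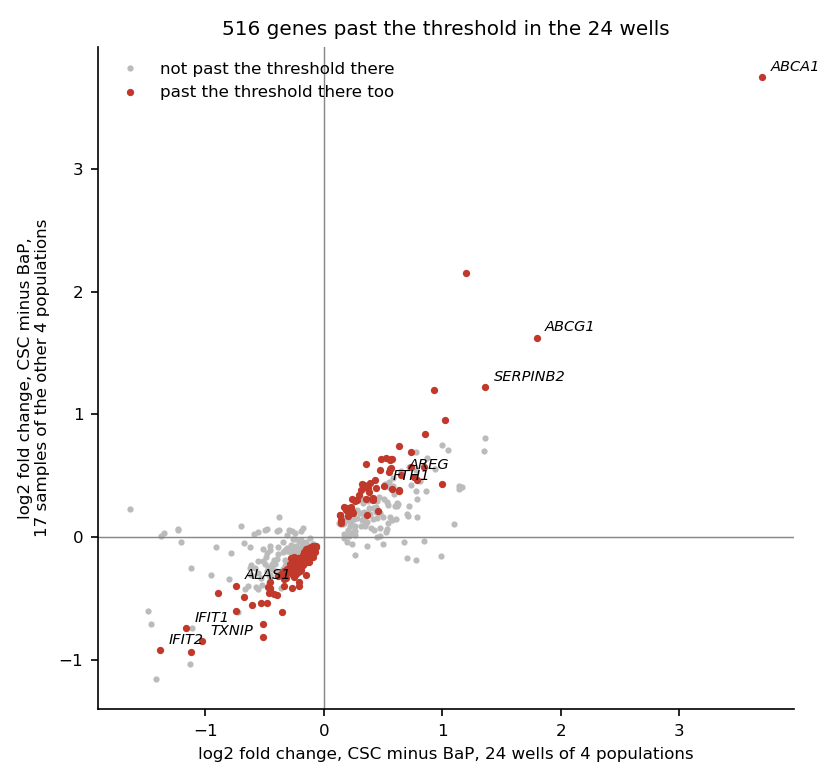
Each point is 1 of the 516 genes past the threshold in the 24 wells, with the log2 fold change of CSC minus BaP in those wells (horizontal) and in 17 samples of the other 4 populations (vertical). Red points passed the threshold there too; 486 of the 516 points lie on the side of 0 that their main value has.

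Placed against the shared DMSO wells, the differences had several forms. Of the 178 genes higher in CSC, 42 were above DMSO under CSC with no call under BaP, 60 were below DMSO under BaP with no call under CSC, 13 were above DMSO under both and 55 passed the threshold under neither. Of the 338 genes higher in BaP, 152 were above DMSO under BaP alone, 59 were below DMSO under CSC alone, 12 were above under BaP and below under CSC, and 100 passed under neither. In these wells CSC against DMSO gave 505 genes (4.43% of genes tested), 2.14% above and 2.29% below DMSO. BaP against DMSO gave 896 (7.95%), 4.28% above and 3.67% below. The comparisons share their DMSO wells, and their values are given side by side below.

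The difference of greatest size among the 11277 genes was in ABCA1, which exports cholesterol to apolipoproteins and lies at chr9:107543287-107690436 on hg19, the build of the counts. CPM values are counts relative to the library total multiplied by its TMM factor, not to the plain library total. The level of ABCA1 was 7.31 CPM in the lowest CSC well, 12.6 at the median and 19.4 in the highest. In BaP wells it ran from 0 to 2.30 CPM with a median of 0.801. In DMSO wells it ran from 0.635 to 8.55 CPM with a median of 2.59. No CSC well overlapped a BaP well, while DMSO wells lay between them and overlapped both groups. The log2 fold change of CSC against BaP was 3.70 (SE 0.32, adjusted p = 3.51e-14), or 13.0-fold. The counts behind it were 217 in 12 CSC wells, 11 in 12 BaP wells and 59 in 12 DMSO wells. Against DMSO the log2 fold change was 1.90 under CSC (adjusted p = 5.29e-10) and -1.77 under BaP (adjusted p = 0.000153), so the gene rose with one chemical and fell with the other. Each well is a bulk measurement, in which fewer cells that express a gene and less RNA per cell cannot be told apart. In single populations the log2 fold change of CSC against BaP was 4.31 in FAT1 cells, 3.51 in GFP cells, 3.96 in NRF2 cells and 3.24 in PIK3CA cells, and it was 3.75 in the other populations (adjusted p = 1.93e-10). With the barcode covariate it was 3.01 (adjusted p = 0.237).

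A list of LXR genes was put together after these values were seen, prompted by ABCA1. Of the 8 members tested besides ABCA1, 3 were higher in CSC and none in BaP, with a median log2 fold change of 0.41. By DESeq2 1 of the 9 members with ABCA1 included passed, against 4 by limma and 4 by edgeR. ABCG1, which exports cholesterol to lipoprotein particles, had 2.09 to 8.21 CPM in CSC wells and 0 to 3.34 in BaP wells, and differed by 1.80 on the log2 scale (SE 0.33, adjusted p = 7.94e-05). SREBF1, the regulator of fatty acid synthesis, differed by 1.10 (SE 0.27, adjusted p = 0.00695), but by 0.11 in the other populations (adjusted p = 0.928). SCD, the fatty acid desaturase, was higher in CSC by 0.40 (SE 0.06, adjusted p = 1.22e-07), and it fell against DMSO under both, by 0.23 on the log2 scale with CSC and by 0.64 with BaP. MYLIP, a ubiquitin ligase, had a log2 difference of 0.60 that did not pass (adjusted p = 0.237).

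Sterol and fatty acid synthesis held changes in both directions. Of 31 members, 4 were higher in CSC and 8 in BaP (38.7% called, against 4.58% of all genes). Their median log2 fold change was -0.11. Among the 4 were SREBF1 and SCD, described above, and ACACA, the first enzyme of fatty acid synthesis, which differed by 0.54 (adjusted p = 0.0277) and passed in 18 of the 24 fits that left out 1 well. ACACA differed by 0.07 in the other populations (adjusted p = 0.93).

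The 8 genes higher in BaP were all enzymes on the route to cholesterol, FDPS, NSDHL, ACAT2, FDFT1, SQLE, EBP, MSMO1 and IDI1. FDPS, which makes farnesyl diphosphate, had 295 to 484 CPM in BaP wells with a median of 417, against 237 to 352 in CSC wells with a median of 328. Its log2 fold change was -0.34 (SE 0.04, adjusted p = 5.36e-09), and every BaP well exceeded every CSC well of its population. It rose over DMSO by 0.27 on the log2 scale under BaP (adjusted p = 2.34e-07), and under CSC it differed by -0.07 (adjusted p = 0.468). FDFT1, which commits farnesyl diphosphate to sterols, differed between CSC and BaP by -0.25 (adjusted p = 2.16e-05). With library totals 3 members of this list passed as higher in BaP and 5 as higher in CSC, so the balance within it rests on the scaling. With the barcode covariate the median was 0.04 and no member passed.

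**Figure D2:**
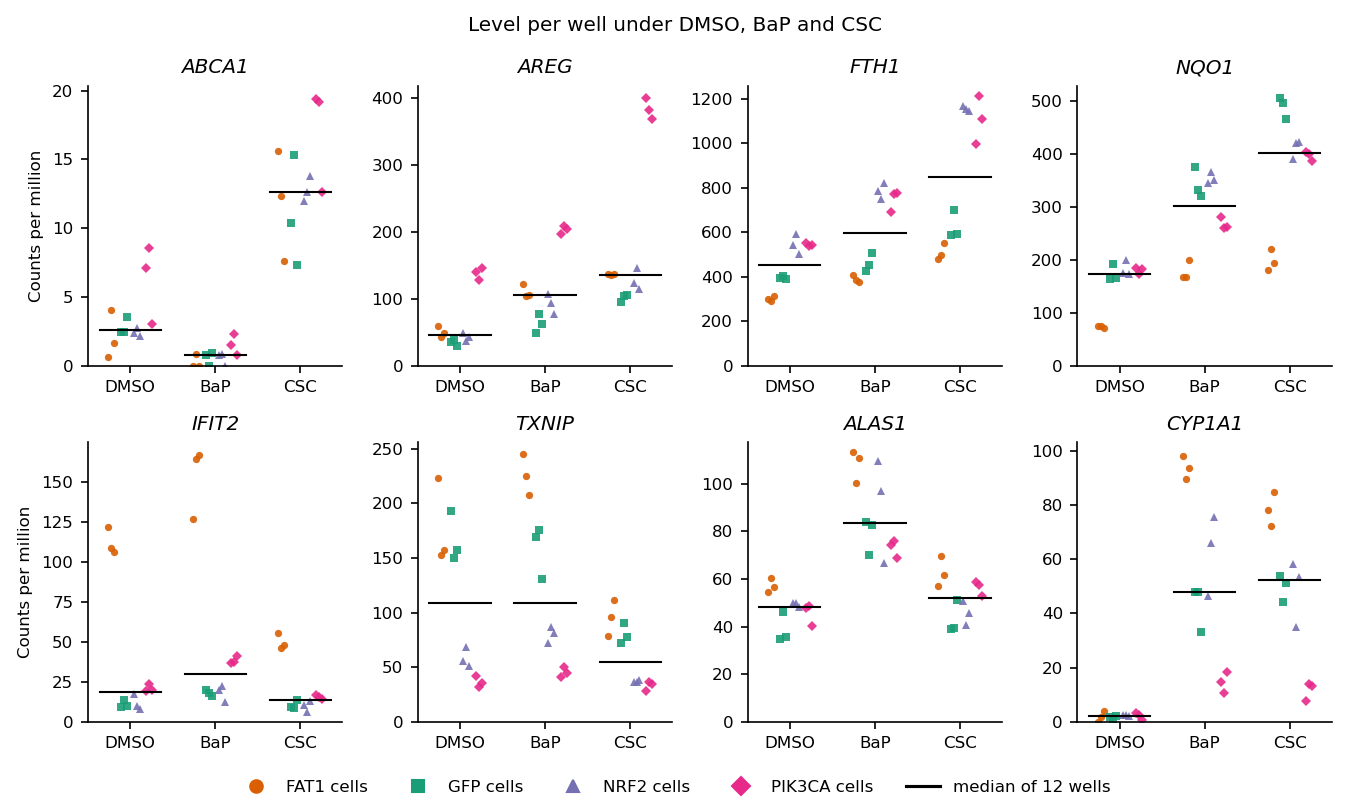
CPM of 8 genes in each of 36 wells, 12 per chemical, with populations by colour and shape and a bar at the median of 12 wells. ABCA1 wells of CSC and BaP do not overlap, CYP1A1 is high under both chemicals and lowest in PIK3CA cells, and IFIT2 is highest in FAT1 cells under every chemical.

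AHR target genes were compared next, since both exposures contain AHR ligands. CYP1A1 (hg19 chr15:75011883-75017877) stood at 0 to 4.15 CPM in DMSO wells, at 7.89 to 84.6 in CSC wells with a median of 52.4 and at 10.7 to 98.2 in BaP wells with a median of 47.9. The CSC and BaP wells overlapped in range and both lay above every DMSO well. The log2 fold change of CSC against BaP was -0.19 (SE 0.09, adjusted p = 0.298), with a 95% interval of -0.37 to -0.0038. Against DMSO it rose by 4.46 on the log2 scale under CSC and by 4.64 under BaP. Its levels under both chemicals were lowest in PIK3CA cells.

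CYP1B1, the other AHR-driven oxidase, had 34.4 to 151 CPM in CSC wells and 32.96 to 121 in BaP wells, against 3.23 to 9.92 under DMSO. It was 0.33 higher in CSC on the log2 scale (SE 0.07, adjusted p = 0.00161). That difference was 0.13 in the other populations (adjusted p = 0.45). TIPARP, which feeds back on AHR, differed by 0.24 (adjusted p = 0.116, 95% interval 0.06 to 0.41). AHRR, the AHR repressor, had 15 counts in all CSC wells and 13 in all BaP wells, a log2 difference of -0.17 with an interval from -0.95 to 0.60. ALDH3A1, an aldehyde dehydrogenase of the battery, differed by -0.28 (adjusted p = 0.693).

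The AHR list had 26.7% of its 15 members called, against 4.58% of all genes, and a median of 0.20. Of these members 4 were higher in CSC and none in BaP. Besides CYP1B1 these were SERPINB2, NQO1 and SLC7A5, each of which also has other regulators. SERPINB2, an inhibitor of plasminogen activators, had 3.39 to 57.1 CPM in CSC wells with a median of 19.96, against 0.798 to 29.8 in BaP wells with a median of 9.86. The wells overlapped across populations, and the log2 fold change was 1.36 (SE 0.18, adjusted p = 2.65e-08). It rose over DMSO under both chemicals, by 2.11 and 0.74 on the log2 scale. SLC7A5, an importer of large amino acids, differed by 0.32 (adjusted p = 0.00936), and by 0.09 in the other populations (adjusted p = 0.746).

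About as many NRF2 targets rose over DMSO under CSC as under BaP. Of 36 members 17 were above DMSO under CSC and 18 under BaP, and none was below under either. In the direct comparison 5 were higher in CSC and 2 in BaP (19.4% called, against 4.58% of all genes), with a median of 0.05. By edgeR and by DESeq2 4 were higher in CSC, and FTL no longer passed. With the barcode covariate the median was -0.15 and no member passed. The other populations had 9 higher in CSC and 1 in BaP. FTH1, the heavy chain of ferritin, had 479 to 1211 CPM in CSC wells with a median of 849, and 378 to 823 in BaP wells with a median of 598. In each population every CSC well lay above every BaP well. CSC exceeded BaP by 0.51 on the log2 scale (SE 0.04, adjusted p = 2.24e-17), from 0.40 in FAT1 cells to 0.57 in PIK3CA cells, and it was 0.42 in the other populations (adjusted p = 1.93e-10).

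NQO1, the quinone reductase, had 181 to 507 CPM in CSC wells with a median of 402, and 167 to 375 in BaP wells with a median of 301. The difference was 0.38 (SE 0.05, adjusted p = 4.85e-09), with rises over DMSO of 1.29 under CSC and 0.90 under BaP on the log2 scale. SLC7A11, the cystine importer, was higher in CSC by 0.64 (SE 0.12, adjusted p = 6.87e-05). It rose over DMSO by 0.53 under CSC, while under BaP it differed by -0.10 (adjusted p = 0.683). TXN, or thioredoxin, was higher in CSC by 0.15 (SE 0.02, adjusted p = 1.09e-06).

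The 2 members that were higher in BaP were IDH1, which makes NADPH, at -0.25 (SE 0.04, adjusted p = 3.33e-05), and CBR1, a carbonyl reductase, at -0.21 (SE 0.06, adjusted p = 0.0392). CBR1 passed in 12 of the 24 fits that left out 1 well. The genes of glutathione synthesis did not pass: GCLM differed by 0.30 (95% interval -0.04 to 0.64) and GCLC by 0.0081 (-0.24 to 0.26). SRXN1, AKR1C1 and AKR1B10 differed by -0.19, 0.50 and -0.02 with adjusted p-values from 0.132 to 0.972, and near-identical AKR1C genes make AKR1C1 uncertain. HMOX1, the heme oxygenase, was too low to test, at 10 counts in all CSC wells, 8 in all BaP wells and 6 in all DMSO wells.

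Iron genes showed one more difference. TFRC, the transferrin receptor, had 17.5 to 77.2 CPM in CSC wells with a median of 44.4, against 6.63 to 54.8 in BaP wells with a median of 28.6. Its CSC level was higher by 0.74 on the log2 scale (SE 0.09, adjusted p = 2.57e-08), and by 0.69 in the other populations (adjusted p = 3.11e-07). Against DMSO it rose by 0.53 under CSC, and it differed by -0.20 under BaP (adjusted p = 0.292). The ferritin light chain FTL differed by population and is given further on.

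**Figure D3:**
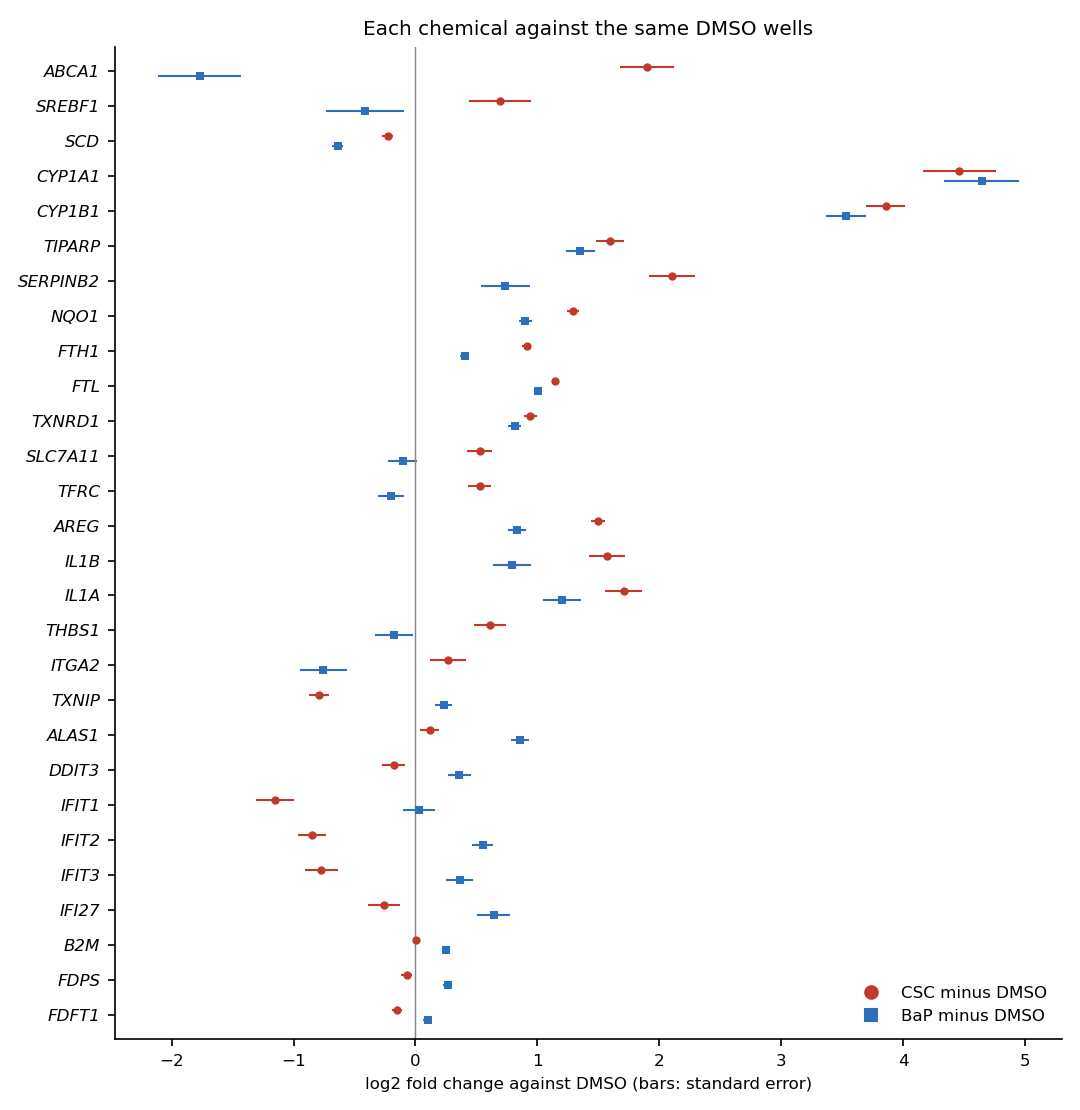
Log2 fold changes against the same 12 DMSO wells of CSC (red circles) and BaP (blue squares), with bars of 1 standard error, for 28 named genes. ABCA1 lies at 1.90 under CSC and -1.77 under BaP, CYP1A1 lies above 4 under both, and IFIT1 lies at -1.15 under CSC and 0.03 under BaP.

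Some genes of the epidermal growth factor and ERK pathway were higher in CSC. Of 28 immediate early and ERK feedback genes 6 were higher in CSC and none in BaP. That is 21.4% of the list, against 4.58% of all genes, and the median log2 fold change was 0.27. DESeq2 called 2 of the 28 genes, and without GFP cells 3 passed. AREG, or amphiregulin, a ligand of the EGF receptor, had 95.1 to 399 CPM in CSC wells with a median of 136, against 48.8 to 208.5 in BaP wells with a median of 105. PIK3CA cells held the highest wells under both, and in each population every CSC well exceeded every BaP well. CSC exceeded BaP by 0.65 on the log2 scale (SE 0.06, adjusted p = 3.31e-12), and AREG rose over DMSO by 1.498 under CSC and by 0.83 under BaP.

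The other 5 were FOSL1, a subunit of the AP-1 factor, ETV5, a transcription factor downstream of ERK, the ERK phosphatases DUSP6 and DUSP4, and CCND1, or cyclin D1. FOSL1 differed by 1.14 (SE 0.29, adjusted p = 0.008), DUSP6 by 0.78 (SE 0.21, adjusted p = 0.0124) and CCND1 by 0.63 (SE 0.12, adjusted p = 0.000186). ETV5 at 0.86 passed in 7 and DUSP4 at 0.77 in 11 of the 24 fits that left out 1 well. In the other populations ETV5 was higher in CSC by 0.84 (adjusted p = 0.019), whereas FOSL1 differed by 0.42 (adjusted p = 0.447) and DUSP6 by 0.54 (adjusted p = 0.171). EGR1, FOS and JUN, the early response genes themselves, differed by 0.02, 0.15 and 0.21 and did not pass.

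Several matrix and adhesion genes were higher in CSC. Of 45 members of the extracellular matrix and mesenchymal list 13 were higher in CSC and 1 in BaP, with a median of 0.22. That is 31.1% called, against 4.58% of all genes. Without PIK3CA cells 7 were higher in CSC, and the other populations had 6 higher in CSC and 2 in BaP, with a median of 0.10. By role these included the receptors ITGA2, ITGA6 and ITGB1, the laminin chains LAMA3 and LAMB3, the secreted proteins THBS1, COL4A1 and TGFBI, and the protease genes and inhibitors MMP1, PLAUR and TIMP1. ITGA2, a collagen receptor, had 7.89 to 23.1 CPM in CSC wells with a median of 13.6, against 3.24 to 10.4 in BaP wells with a median of 7.13. Its log2 fold change was 1.03 (SE 0.18, adjusted p = 2.66e-05). Against DMSO it fell by 0.76 under BaP (adjusted p = 0.00584) and differed by 0.27 under CSC (adjusted p = 0.432).

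LAMA3 showed the same placing, at 0.57 between CSC and BaP (SE 0.08, adjusted p = 1.59e-07), -0.44 against DMSO under BaP (adjusted p = 0.000339) and 0.13 under CSC (adjusted p = 0.523). THBS1, or thrombospondin, differed by 0.79 (SE 0.15, adjusted p = 0.000206). It rose over DMSO under CSC by 0.61 and did not pass under BaP (-0.18, adjusted p = 0.57). MMP1, a collagenase, rested on 27 counts in CSC wells and 4 in BaP wells (log2 fold change 1.35, adjusted p = 0.0287). Over this list BaP had 11 members below DMSO and none above, and CSC had 8 above and 3 below. TPM1, a tropomyosin, was the member higher in BaP, at -0.46 (adjusted p = 0.0402), and it no longer passed under library totals. COL4A1 did not repeat in the other populations, at -0.16 (adjusted p = 0.881).

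Interleukin-1 genes were the chemokine and cytokine members that passed, 2 of 18 (11.1%, against 4.58% of all genes), both higher in CSC. IL1B had 14.8 to 56.0 CPM in CSC wells with a median of 21.6, against 9.43 to 21.6 in BaP wells with a median of 15.1 and 4.04 to 21.99 under DMSO. The difference was 0.78 (SE 0.12, adjusted p = 5.09e-06), and it was 1.19 in PIK3CA cells and 0.33 in FAT1 cells. IL1A differed by 0.50 (SE 0.11, adjusted p = 0.00238). Both rose over DMSO under both chemicals. In the other populations neither passed, at 0.37 for IL1B (adjusted p = 0.148) and 0.16 for IL1A (adjusted p = 0.529).

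Among the genes with the greatest differences and at least 10 CPM were also the long noncoding RNA LINC00707 (0.85), NT5E (0.74), an enzyme that makes adenosine, the kinase gene CDC42BPA (0.73) and ZBED2 (0.72). LINC00707 and NT5E also passed in the other populations. CDC42BPA (0.42, adjusted p = 0.135) and ZBED2 (0.26, adjusted p = 0.525) did not pass there. KRT6A, a keratin of activated epithelium, had 100.4 to 205 CPM in CSC wells and 74.6 to 178 in BaP wells, and it was higher by 0.46 (SE 0.06, adjusted p = 4.85e-09). LDHA, which makes lactate, was higher in CSC by 0.23 (SE 0.03, adjusted p = 8.12e-09). Against DMSO they fell by 0.34 and 0.27 under BaP, with no call under CSC.

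The interferon-stimulated genes had the lowest median of the 18 lists. Of 38 members 10 were higher in BaP and none in CSC (26.3% called, against 4.58% of all genes). The median log2 fold change was -0.36 against 0.0015 over all genes, and 31 of the 38 values lay below 0. IFIT2 (hg19 chr10:91043451-91069028), which binds viral RNA, had 12.2 to 167 CPM in BaP wells with a median of 29.8, against 5.94 to 55.6 in CSC wells with a median of 13.9 and 7.90 to 122 under DMSO with a median of 18.4. FAT1 cells held the highest wells under every chemical, so the ranges overlapped across populations, and in 3 of the 4 populations no CSC well reached a BaP well. The log2 fold change was -1.38 (SE 0.10, adjusted p = 1.66e-16), and with the barcode covariate it was -1.90 (adjusted p = 5.01e-05).

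IFIT1 and IFIT3, of the same family, differed by -1.16 (SE 0.15, adjusted p = 2.18e-08) and -1.12 (SE 0.13, adjusted p = 2.01e-09). IFIT1 wells ran from 1.04 to 27.1 CPM in CSC and from 3.80 to 53.01 in BaP. The placing against DMSO differed within the family. IFIT1 fell by 1.15 under CSC (adjusted p = 2.67e-08) and differed by 0.03 under BaP (adjusted p = 0.933). IFIT2 fell by 0.85 under CSC and rose by 0.55 under BaP. IFIT3 fell by 0.77 under CSC and rose by 0.36 under BaP, all on the log2 scale.

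IFI27 and IFI44, both interferon-induced, were higher in BaP at -0.89 (SE 0.14, adjusted p = 2.36e-06) and -0.67 (SE 0.12, adjusted p = 3.10e-05). IFI27 rose over DMSO under BaP by 0.64 (adjusted p = 0.000524) and differed by -0.26 under CSC (adjusted p = 0.349). B2M, the light chain of class I antigen-presenting complexes, had 3755 to 4269 CPM in BaP wells with a median of 3921, and 2928 to 3633 in CSC wells with a median of 3352. No BaP well overlapped a CSC well, and the log2 fold change was -0.24 (SE 0.02, adjusted p = 1.20e-14). ISG15, IFITM2, IFITM3 and PSMB8 made up the 10. IRF1, also induced by interferons, differed by -0.01 and did not pass. In the other populations 8 of the 38 were higher in BaP and none in CSC, with a median of -0.27.

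**Figure D4:**
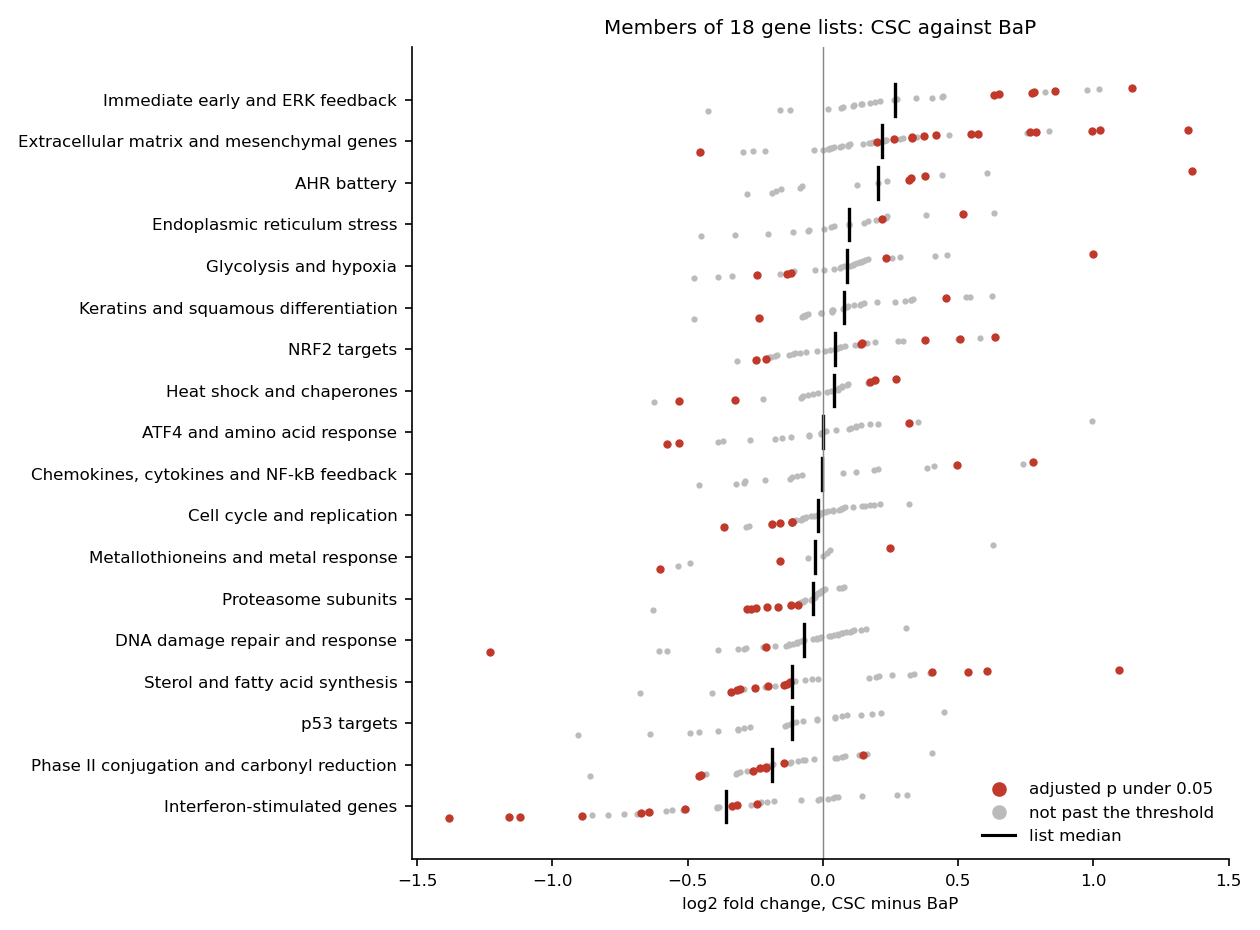
Log2 fold change of CSC minus BaP for each tested member of 18 gene lists, ordered by list median (black bar), with members past the threshold in red. The interferon-stimulated genes have the lowest median, -0.36, and the immediate early and ERK feedback genes the highest, 0.27.

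Further genes with large differences were higher in BaP. TXNIP, which binds thioredoxin and limits glucose uptake, had 40.7 to 245 CPM in BaP wells with a median of 109, against 28.7 to 111 in CSC wells with a median of 55.1. In each population every BaP well exceeded every CSC well. The log2 fold change was -1.03 (SE 0.08, adjusted p = 8.03e-17), from -1.23 in FAT1 cells to -0.44 in PIK3CA cells, and it was -1.18 with the barcode covariate (adjusted p = 0.00264). It fell against DMSO by 0.79 under CSC and rose by 0.23 under BaP.

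ALAS1, the first enzyme of heme synthesis, had 66.5 to 113 CPM in BaP wells with a median of 83.4, against 38.9 to 69.7 in CSC wells and 34.7 to 60.5 under DMSO. CSC differed from BaP by -0.74 on the log2 scale (SE 0.08, adjusted p = 5.71e-11), and BaP wells were above CSC wells within every population. It rose over DMSO by 0.86 under BaP (adjusted p = 2.09e-14) and differed by 0.12 under CSC (adjusted p = 0.536). WNK1, a kinase of ion transport, had the same placing, at -0.74 between CSC and BaP (adjusted p = 2.26e-06) and 0.68 over DMSO under BaP, while its sign turned with the barcode covariate (0.59). KRBOX4 at -0.70 and TSPAN1 at -0.57 completed the genes with the greatest differences. KRBOX4 was at 0.09 in the other populations (adjusted p = 0.9).

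Some phase II and carbonyl-reducing enzymes were higher in BaP. Of 33 members 7 passed in that direction and 1 in CSC (24.2%, against 4.58% of all genes), with a median of -0.19. ALDH7A1, an aldehyde dehydrogenase, had 104 to 178 CPM in BaP wells and 79.7 to 127 in CSC wells, and differed by -0.46 on the log2 scale (SE 0.06, adjusted p = 1.28e-08). DHRS3, a retinal reductase, differed by -0.45 (SE 0.09, adjusted p = 0.000327) and rose over DMSO under both, by 0.73 and 1.17. GSTK1, a glutathione transferase, and AKR7A2, an aldehyde reductase, differed by -0.26 and -0.23. The exception, MGST1, a microsomal glutathione transferase, was higher in CSC by 0.15 (SE 0.02, adjusted p = 9.84e-07) and stayed past the threshold with the barcode covariate at 0.33 (adjusted p = 0.00498).

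Many abundant genes were higher in BaP than in CSC by small amounts. Cytosolic ribosomal protein genes, a list added after the values were seen, had 47 of 82 members higher in BaP and 1 in CSC, with a median of -0.10. They made up 28.4% to 36.7% of counts in CSC wells and 29.2% to 38.2% in BaP wells. The median share was 29.9% in CSC wells, 31.7% in BaP wells and 31.65% in DMSO wells. Under CSC 37 members lay below DMSO and 1 above, with a median of -0.07. Under BaP 20 lay above DMSO and 5 below, with a median of 0.02. Nuclear subunits of oxidative phosphorylation, added in the same way, had 30 of 74 higher in BaP and 1 in CSC, with a median of -0.11. Of these subunits 7 lay below DMSO and 1 above under CSC, and 18 lay above and 1 below under BaP. The ribosomal list had 58.5% called and the oxidative phosphorylation list 41.9%, against 4.58% of all genes. With library totals the ribosomal list had 34 higher in BaP and 3 in CSC, and its median was -0.04. With the barcode covariate no member of either list passed, and the medians turned to 0.03 and 0.02. RPLP1, of the ribosomal stalk, differed by -0.21 (SE 0.02, adjusted p = 1.22e-12), and ribosomal genes have near-identical copies that make single members uncertain.

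Proteasome subunits had 7 of 34 higher in BaP and none in CSC (20.6% called, against 4.58% of all genes). Their median was -0.04, which became 0.01 with library totals and 0.04 with the barcode covariate. PSME1 and PSME2, the interferon-inducible activator subunits, differed by -0.25 and -0.21 (adjusted p = 0.000584 and 1.92e-05). Of 45 cell cycle and replication genes 5 were higher in BaP and none in CSC (11.1% called, against 4.58% of all genes). Their median was -0.02 (0.03 with library totals and 0.03 with the barcode covariate). Under CSC 24 of the 45 lay below DMSO and 0 above, and under BaP 22 lay below and 1 above. Over all genes 2.29% lay below DMSO under CSC and 3.67% under BaP. HMGB2, a chromatin protein, had 664 to 1879 CPM in BaP wells and 516 to 1535 in CSC wells, and it differed by -0.36 (SE 0.03, adjusted p = 9.78e-13). The histone gene HIST1H4C differed by -0.33 (SE 0.03, adjusted p = 2.57e-15). STMN1, CCNB2 and PCNA differed by -0.12 to -0.19, of which CCNB2 and PCNA no longer passed with library totals.

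Among the stress lists 12% of ATF4 members, 20.8% of chaperones and 10.0% of endoplasmic reticulum genes were called, against 4.58% of all genes. In the ATF4 list DDIT3, the factor CHOP, and NUPR1, a stress-induced chromatin protein, were higher in BaP at -0.53 (adjusted p = 2.26e-06) and -0.58 (adjusted p = 0.000549), while SLC7A5 was higher in CSC, in all 3 of 25 members. DDIT3 also passed in the other populations (-0.54, adjusted p = 2.32e-06), and NUPR1 did not (-0.25, adjusted p = 0.496). Of 24 chaperone genes 3 were higher in CSC, HSP90AA1 (0.19), CCT2 (0.17) and CHORDC1 (0.27), and 2 in BaP, the HSP70 partners DNAJB1 (-0.53) and DNAJB4 (-0.33). CHORDC1 no longer passed with median-ratio size factors and DNAJB4 no longer passed with library totals. The endoplasmic reticulum genes SEL1L, which serves protein disposal, and HSP90B1, a chaperone, were higher in CSC at 0.52 and 0.22, as 2 of 20. That list had 0 members higher in CSC and 1 in BaP in the other populations.

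In the DNA repair list the glycosylase MUTYH (-1.23) and PARP1 (-0.21), a sensor of strand breaks, were higher in BaP, 2 of 39 or 5.13%, close to the 4.58% of all genes. PARP1 passed in 8 of the 24 fits that left out 1 well, and MUTYH, at a median of 1.29 CPM in CSC and 3.33 in BaP, differed by 0.06 in the other populations. None of 25 p53 targets passed in limma, with 2 at an unadjusted p under 0.05 and 0 called by edgeR and 0 by DESeq2. Glycolysis and hypoxia genes went both ways, with 16.7% of the list called against 4.58% of all genes. SLC2A3, a glucose transporter, and LDHA were higher in CSC, and TPI1, ENO1 and PGK1, enzymes of the glycolytic chain, were higher in BaP at -0.25, -0.13 and -0.12, of 30 members.

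Keratin and squamous genes gave KRT6A on the CSC side and KRT19, of simple epithelium, on the BaP side at -0.24, of 33. That is 6.06% of the list, close to the 4.58% of all genes. KRT19 lay below DMSO under both chemicals, at -0.58 under CSC and -0.34 under BaP. Among 10 metallothionein and metal response genes 30.0% were called, against 4.58% of all genes. MT2A was higher in CSC by 0.25 (adjusted p = 2.50e-07), and MT1F and MT1X were higher in BaP at -0.60 and -0.16. These copies resemble each other closely, so the split between them is uncertain.

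Within single populations the counts were smaller, with 79 genes in FAT1 cells (0.701%), 84 in GFP cells (0.745%), 106 in NRF2 cells (0.940%) and 62 in PIK3CA cells (0.550%). The difference itself varied between populations for 9 genes (0.0798% of 11277), by the F test of the interaction, and for 68 without FAT1 CSC replicate 1. FTL (hg19 chr19:49468566-49470136), the light chain of ferritin, had the highest F value. In PIK3CA cells its CSC wells had 17680 to 18450 CPM against 12900 to 13480 in BaP wells, a log2 fold change of 0.45 (SE 0.02). In NRF2 cells both chemicals had a mean of 15040 CPM, and in FAT1 and GFP cells the log2 fold changes were -0.0093 and -0.08. Every population had FTL above its DMSO wells under both chemicals.

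TIMP1, an inhibitor of matrix proteases, was higher in CSC in NRF2 cells (0.47) and PIK3CA cells (0.49), where every well of both chemicals had at least 1106 CPM, and differed by -0.04 and -0.11 in FAT1 and GFP cells. SCD differed by 0.74 in FAT1, 0.31 in GFP and 0.62 in NRF2 cells, and by 0.02 in PIK3CA cells. TXNRD1, the thioredoxin reductase driven by NRF2, was higher in CSC in PIK3CA cells by 0.47 (SE 0.08), with values from -0.16 to 0.09 in the other three. It passed as a difference between populations in 18 of the 24 fits that left out 1 well, and FTL, TIMP1, SCD and MT1X in all 24.

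**Figure D5:**
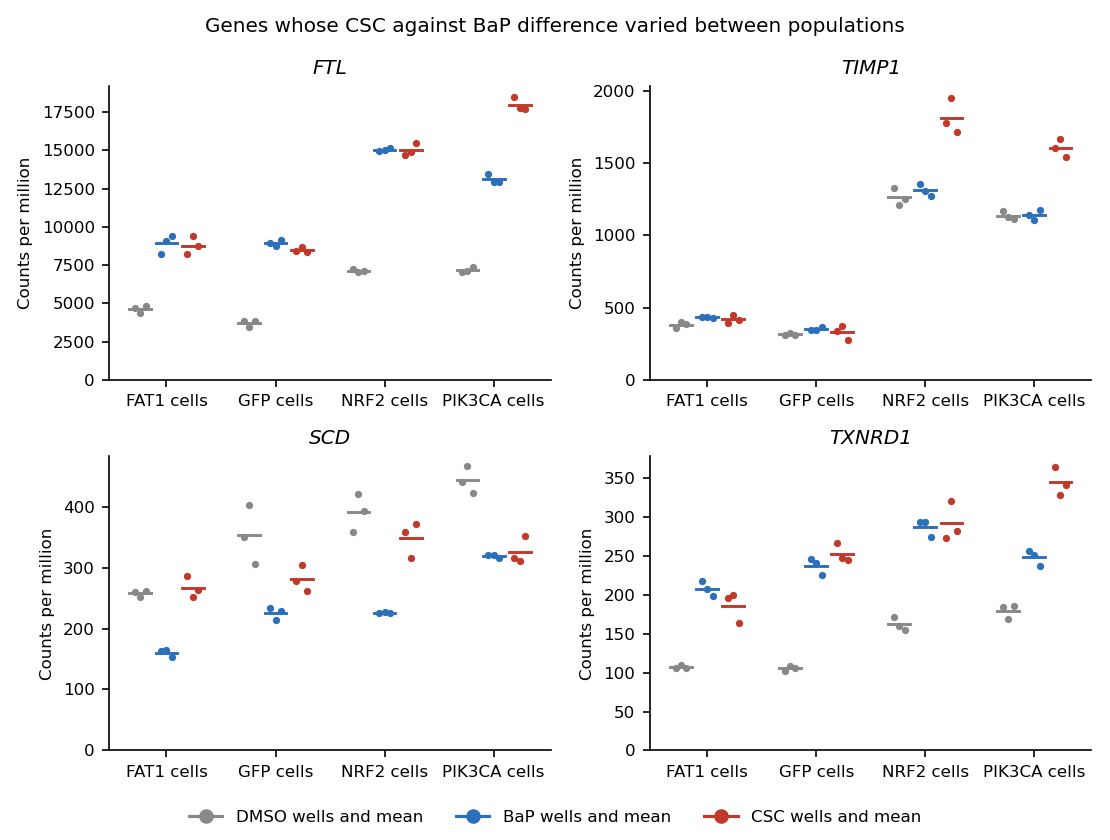
CPM of FTL, TIMP1, SCD and TXNRD1 in each of 3 wells per group, with the mean as a bar, for DMSO (grey), BaP (blue) and CSC (red). In PIK3CA cells the CSC wells of FTL (17680 to 18450) stand above its BaP wells (12900 to 13480), while in NRF2 cells both means are 15040.

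The targeted genes followed the labels in part. NFE2L2 had 132 to 166 CPM in NRF2 wells and at most 75.5 in the other wells, and it did not differ between CSC and BaP past the threshold (-0.08, adjusted p = 0.62). PIK3CA had 5.82 to 16.4 CPM in PIK3CA wells, against at most 5.97 elsewhere, so that the ranges overlapped. FAT1 had 0 to 4.37 in FAT1 wells, which overlapped the 4.25 to 11.3 of GFP wells. All 8 airway basal markers were counted under each chemical, with a summed level of 368 to 927 CPM in CSC wells and 390 to 897 in BaP wells. Of 5 secretory markers found in the files none had a count in CSC wells and 1 had in BaP wells. Of 6 ciliated markers 4 had counts in CSC wells and 3 in BaP wells, with summed levels of 18.2 to 42.9 and 23.2 to 34.5 CPM, while FOXJ1 and TPPP3 were at 0. Fibroblast markers had counts for 2 of 6 under each chemical, with COL1A2, COL3A1, LUM and PDGFRA at 0 and summed levels up to 13.4 CPM. Leukocyte markers had counts for 1 of 6 in CSC and 2 of 6 in BaP wells, up to 8.005 CPM in sum, with PTPRC at 0. Endothelial markers had counts for 2 of 5 and 3 of 5, up to 4.37 CPM in sum, with VWF and CDH5 at 0.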

How the data were processed

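Gene expression was measured by 3′DGE in 95 wells. The authors deposited raw counts per gene and well, in which each unique molecular identifier was counted once per gene after alignment with BWA aln 0.7.10 to UCSC RefSeq hg19 transcripts. Samples were grouped by their labels. Genes with a mean count above 1 over the wells compared were kept, scaled by TMM (edgeR 4.0.16) and fitted with voom and limma 3.58.1 in R 4.3.3, with population as covariate and Benjamini-Hochberg adjustment (adjusted p under 0.05). DMSO wells entered only separate fits against vehicle. The interaction of chemical and population was an F test. Alternatives were edgeR quasi-likelihood, DESeq2 1.42.0, other scalings, filters and covariates, a replicate block, and wells or populations left out. On counts simulated for the direct comparison, with 11129 genes tested and 198 changed by 0.5 on the log2 scale, 40.9% were recovered and 4.71% of calls were false, with 11113 tested and 196 changed by 1 these were 67.9% and 8.28%, and with none changed 0 of 11095 were called.

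Named genes were the targeted genes, the 12 greatest changes in each direction with the same sign in every population and at least 10 CPM, the 5 lowest adjusted p-values in each direction among genes whose wells did not overlap in any population, up to 4 called members per list and direction, a fixed set of AHR and NRF2 genes whatever their result, and up to 6 genes that varied between populations. Further list members, the promoters and the LXR, ribosomal and oxidative phosphorylation lists were chosen after values were seen. Members and lists were all chosen with earlier results of these data known. Some listed genes are not reported here.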

Additional observations from a re-analysis of the deposited data

Results flagged for a closer look

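The difference between CSC and BaP itself varied between populations for 9 genes by the F test of the interaction in limma, with Benjamini-Hochberg adjustment over 11277 genes (698 at an unadjusted p under 0.05). FTL, the ferritin light chain, had an adjusted p of 1.71e-21 and was higher in CSC in PIK3CA cells. TIMP1 (adjusted p = 3.82e-06) was higher in CSC in NRF2 and PIK3CA cells, and SCD (adjusted p = 0.000357) in FAT1, GFP and NRF2 cells. MT1X, a metallothionein, had an adjusted p of 0.000753, with log2 fold changes of -0.17 in FAT1, -0.47 in GFP, -0.13 in NRF2 and 0.05 in PIK3CA cells. These 4 passed in each of the 24 fits that left out 1 well.

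MALAT1, a nuclear long noncoding RNA (adjusted p = 0.00443), differed by 0.18 in FAT1 cells and by -0.04 to 0.03 in the others, and by edgeR it did not pass (adjusted p = 0.84). HNRNPA2B1, an RNA-binding protein (adjusted p = 0.028), ran from 0.23 in FAT1 cells to -0.18 in NRF2 cells and passed in 10 of the 24 fits, but not by edgeR (adjusted p = 0.0551). RPL6, a ribosomal protein gene (adjusted p = 0.028), ran from -0.13 in GFP cells to 0.35 in PIK3CA cells and passed in 19. SNHG5, a host gene of small nucleolar RNAs (adjusted p = 0.0305), ran from -0.26 in GFP cells to 0.05 in PIK3CA cells and passed in 13, but not by edgeR (adjusted p = 0.327). TXNRD1 (adjusted p = 0.0305) was 0.47 in PIK3CA cells and passed in 18. Explanations for these differences were not tested.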

How the results depend on the processing

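Of 891 values under alternatives, 77 counts of genes and 707 values of named genes kept their direction and side of the threshold or stayed within 1.5 times, 28 counts moved, and 56 named values no longer passed, 7 newly passed and 16 reversed. The 516 genes became 333 over the 10000 most variable genes, 336 without GFP cells, 342 without NRF2 cells, 3 with barcode content as covariate, 1110 over all wells of 8 populations and 1054 with their 2-digit wells summed, against 588 by edgeR and 501 by DESeq2. Leaving out 1 well gave 463 to 586. Separate fits within populations gave 18 genes in FAT1, 148 in GFP, 168 in NRF2 and 117 in PIK3CA cells, and with replicate block 191 in GFP, 207 in NRF2 and 111 in PIK3CA cells. Without 1 replicate the ranges were 31 to 116, 34 to 82, 28 to 139 and 37 to 47. The 9 interaction genes became 10 by edgeR, 46 with replicate block and 5 to 68 without 1 well, with 68 without FAT1 CSC replicate 1, 21 without FAT1 CSC replicate 2, 14 without GFP CSC replicate 3 and 5 without PIK3CA BaP replicate 3 or GFP BaP replicate 1. Leaving out replicates gave 272 to 372 genes for CSC and 482 to 610 for BaP against DMSO. In the other populations 1-digit wells alone gave 93. Causes of these moves were not tested.

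The replicate numbers did not pair the wells (12 correlations of deviations from -0.03 to 0.104, 1 over 0.1), and with a replicate block 587 genes passed the direct comparison. In the other populations the sign reversed for PIK3CA (-0.22), KRBOX4 (0.0865), MUTYH (0.059), COL4A1 (-0.16), AHRR (0.0885), GCLM (-0.0047), AKR1B10 (0.19) and HNRNPA2B1 (0.13). There 29 named genes kept their sign but no longer passed, among them DUSP6, DUSP4, CDC42BPA, ZBED2, NUPR1, SLC7A5, SEL1L and HSP90B1. GCLC, near 0, was -0.0001 by edgeR, -0.0064 by DESeq2, -0.0006 with the block and -0.0335 to 0.0757 without 1 well. With library totals AKR1B10 was 0.0431 and HNRNPA2B1 0.037, and without 1 well they ran from -0.1486 to 0.0626 and from -0.0455 to 0.0106. Among 24 fits without 1 well, calls were lost for ETV5 in 17, PARP1 in 16, CHORDC1 in 15, DUSP4 in 13, CBR1 in 12, TPM1 and PGK1 in 10, COL4A1 and DNAJB4 in 8, ACACA in 6, MMP1 in 5, TSPAN1 in 2, and MUTYH, DUSP6 and NSDHL in 1. Genes under about 20 counts a well were recovered less often in simulation, so a difference in them may not have been detectable at this depth.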
